A study of Rattus norvegicus with 12 samples.

Results

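ARC, HOMER1, the neuronal pentraxin genes NPTX1, NPTX2 and NPTXR and the polo-like kinase genes PLK2 and PLK3 (Arc, Homer1, Nptx1, Nptx2, Nptxr, Plk2 and Plk3 on the array) were followed over all 12 arrays of the series, 7 of 35716 distinct gene names. They were found by gene name, taking every probe whose name on the array was that of a member once the endings that mark predicted or mapped genes were removed. This gave 10 of the 41012 probes, 1 each for ARC, NPTX1, NPTXR and PLK2 and 2 each for HOMER1, NPTX2 and PLK3. High-density cultures of dissociated hippocampal neurons from E18.5 Sprague-Dawley embryos were treated for 48 h, starting at 10 to 13 days in vitro. One group received tetrodotoxin (TTX, 0.5 to 1 μM), which blocks voltage-gated sodium channels and silences action potentials. Another received bicuculline (BC, 20 μM), which blocks GABA-A receptors and so removes fast inhibition. The control group (CTL) received vehicle alone, given in the sample labels as 0.1% DMSO, whereas the study names a DMSO and a water vehicle in its methods and sets the arrays against water. Each group had 4 RNA samples, each hybridized to 1 single-color Agilent array. Whether separate cultures gave the samples of a group is stated neither in the labels nor in the methods, and p-values therefore cover only the spread among the samples, which could be technical. RNA came from whole cultures, in which fewer cells of a type and less RNA per cell cannot be told apart.

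The members are known for tying the strength of excitatory synapses to neuronal activity. ARC is an immediate early gene whose protein speeds the endocytosis of AMPA receptors. Long HOMER1 forms are scaffolds that link glutamate receptors to the rest of the postsynaptic density, and a short form, transcribed as an immediate early gene, lacks the coiled coil and uncouples those links. Neuronal pentraxins are secreted proteins that gather AMPA receptors at synapses, NPTX2 being the activity-induced one and NPTXR the membrane-anchored one. PLK2 and PLK3 are kinases of the polo-like family that are induced by activity in neurons, and PLK2 is known for the removal of postsynaptic proteins such as the Rap regulator SIPA1L1 (SPAR) during long-lasting rises in firing.

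The probes of HOMER1 differ in the transcript they were designed to, so the start of each is shown, 30 of 60 bases from the 5′ end, with no base in capitals because no motif was marked. The array lists probe A_44_P148865 with the reference transcript and the records of the long forms, and it is called the long-form probe here. It lists A_44_P380835 only with the records of the short form, and it is called the short-form probe here. The array annotation gives neither a genome position.
HOMER1 long-form probe A_44_P148865: gcctgtgatattgaagagggttcttttcat
HOMER1 short-form probe A_44_P380835: aacagaagctcattgacaaactaaagtgac

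Both NPTX2 probes lie on the minus strand of the rn4 build, A_44_P370065 at chr12:10358912-10358971 and A_42_P762508 at chr12:10359854-10359913, with 882 bases between them. Their first 30 bases show that they read separate stretches of the transcript. The first of them gave the stronger signal and is called the brighter probe.
NPTX2 brighter probe A_44_P370065: cccgtccagtattttccccggaactggaga
NPTX2 dimmer probe A_42_P762508: catcatcccatgggtggacaacaatgtcga

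The probes of the polo-like kinases are shown whole, because the genes are paralogs and a probe could bind the transcript of the other. PLK2 probe A_44_P352268 maps to chr2:41805560-41805752 on the plus strand of rn4, and the PLK3 probes map to the minus strand, A_44_P135224 (the brighter) at chr5:137444034-137444203 and A_44_P543283 (the dimmer) at chr5:137446673-137447549. Each of these spans is longer than the 60 bases of its probe, at 193, 170 and 877 bases, so each match is split by a gap in the genome, as a probe across an exon junction would be. Set without gaps against the brighter PLK3 probe, the PLK2 probe was identical at 36 of 48 overlapping bases. Against the dimmer PLK3 probe, it was identical at 22 of 58.
PLK2 probe A_44_P352268: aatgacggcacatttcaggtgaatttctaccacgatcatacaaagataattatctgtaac
PLK3 brighter probe A_44_P135224: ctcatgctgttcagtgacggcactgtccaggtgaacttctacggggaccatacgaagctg
PLK3 dimmer probe A_44_P543283: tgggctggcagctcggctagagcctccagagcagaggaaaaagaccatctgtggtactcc

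The ARC probe A_44_P118724 lies at chr7:112772025-112772084, the NPTX1 probe A_44_P260751 at chr10:108919371-108919430 and the NPTXR probe A_44_P493980 at chr7:118023957-118024016, all on the minus strand of rn4. An exon or UTR annotation of rn4 was not used here.

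Values are log2 of the scanner's processed signal, quantile-normalized across all 12 arrays, and a fold change is a difference of group means on that scale. All 10 probes were well above background on all 12 arrays, and none was saturated. Over the whole array, 74.1 to 78.1% of the probes were well above background per array. A probe was called at a limma adjusted p (FDR) under 0.05 over all probes and a change of at least 1.5-fold, the thresholds of the study's methods. Each of 4 slides carried 1 CTL, 1 TTX and 1 BC array. Across all probes, arrays of different groups deviated from their group means together within a slide set (slides 1 and 3, or slides 2 and 4), with correlations of 0.197 to 0.41. Between sets the correlations were −0.389 to −0.2. Deviations from a group mean cancel out over the 4 arrays of the group, so the negative values follow from the positive ones and are no separate result. Probes are not independent replicates in these correlations.

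Neuronal markers were present in every group. All 7 neuron markers and all 5 glutamatergic markers measured were well above background on all 12 arrays, as were all 13 GABAergic interneuron markers and all 9 astrocyte markers, whereas 2 of 8 microglia markers were well above background on no array. The summed signal of the 13 interneuron markers was 319281 to 372470 in CTL, 138839 to 148516 in TTX and 418316 to 479475 in BC. Of these markers, 8 were called lower and 1 higher in TTX than in CTL. In BC, 2 were called higher and 1 lower than in CTL, and their median log2 fold change was 0.06, so the higher sum was not shared by the whole list. The summed signal of the 5 glutamatergic markers was 31812 to 39105 in CTL, 48658 to 53290 in TTX and 21760 to 26630 in BC. No groups overlapped in these sums. BC also stood apart from CTL in the sum of the 7 neuron markers, at 275082 to 291074 against 301777 to 344119, and of the 9 vascular and fibroblast markers, at 9973 to 16911 against 6236 to 9097, with 2 of the latter called higher. The sum of the 8 microglia markers was low throughout, at 520 to 578 in CTL, 421 to 514 in TTX and 416 to 562 in BC. The part of these shifts in the results below was not tested.

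TTX lowered ARC and PLK3, and BC raised NPTX2 and PLK3 and lowered the signal of the HOMER1 short-form probe. Of the 10 member probes, 3 were called between TTX and CTL, all lower in TTX, against 4.18% of all probes tested (2.73% called lower). Between BC and CTL, 4 were called, 3 higher and 1 lower in BC, against 3.64% of all probes (2.12% higher and 1.52% lower). Directly between TTX and BC, 6 were called, 2 higher and 4 lower in TTX, against 11.2% of all probes (4.95% higher and 6.22% lower). The values of TTX and CTL did not overlap for 6 member probes, against 15.8% of all probes, those of BC and CTL for 7, against 13.8%, and those of TTX and BC for 8, against 26.6%. Every called member probe had its sign on all 4 slides, where an array is set against the array of the other group on the same slide. The groups of each called probe did not overlap, so any pairing of their arrays gives this. It is therefore no separate support for the calls.

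These calls depended on treating the 4 arrays of a group as separate. With the 2 arrays of a group on each slide set averaged, so that 2 values per group remained, limma called none of the 3 TTX probes (adjusted p = 0.0508 to 0.0629) and none of the 4 BC probes (adjusted p = 0.0704 to 0.101). An unadjusted p under 0.05 remained for 5 of 10 member probes with TTX and 7 with BC, beside 10329 and 9133 of all probes, and 512 and 0 of all probes were called. The 6 calls between TTX and BC passed under this setting too (adjusted p = 0.0129 to 0.0313).

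**Figure D1:**
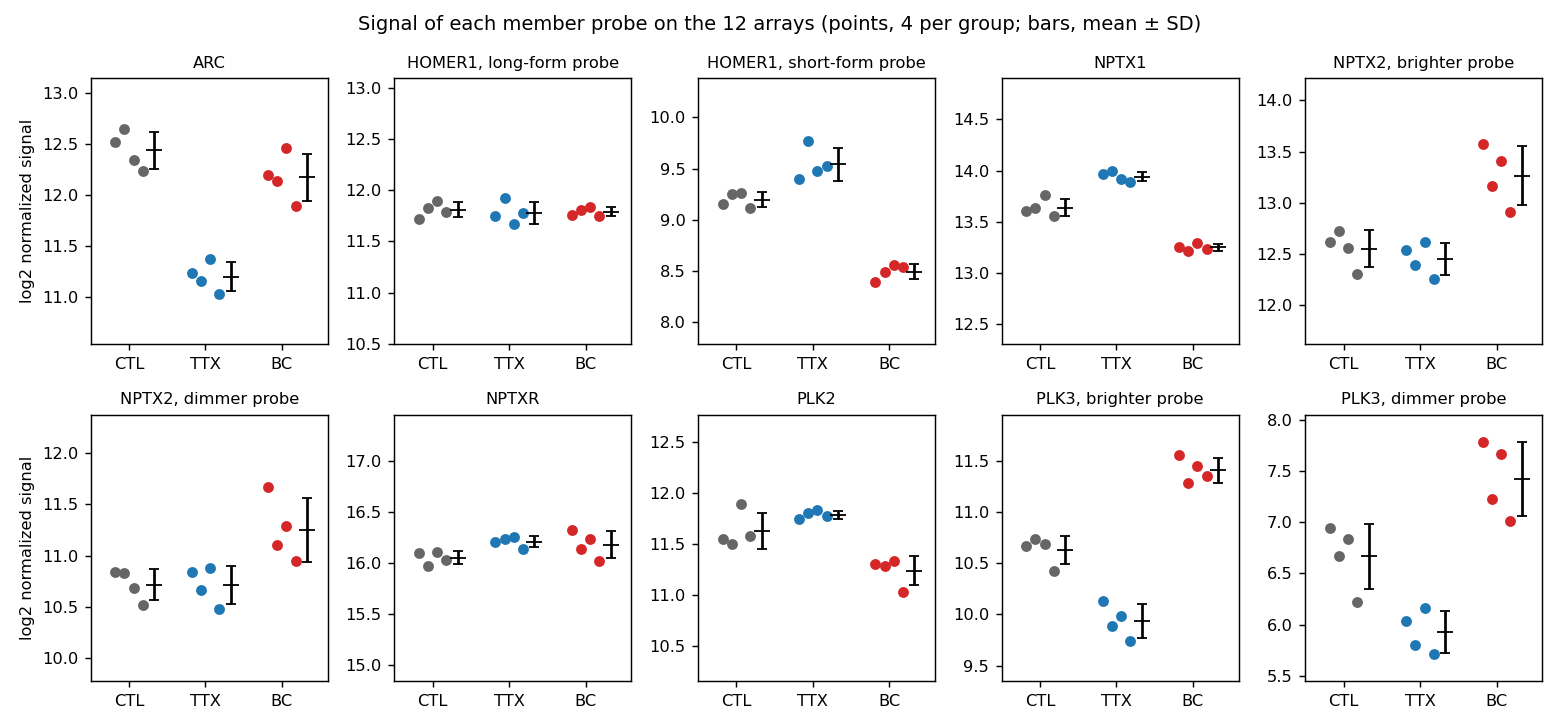
Log2 normalized signal (y axis, a span of equal height in each panel) of the 10 member probes on the 12 arrays. Points are arrays, 4 per group (CTL grey, TTX blue, BC red), and bars give the mean ± SD beside them; the TTX arrays lie below all CTL arrays for ARC and both PLK3 probes, and the BC arrays lie above all CTL arrays for both NPTX2 and both PLK3 probes.

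**Figure D2:**
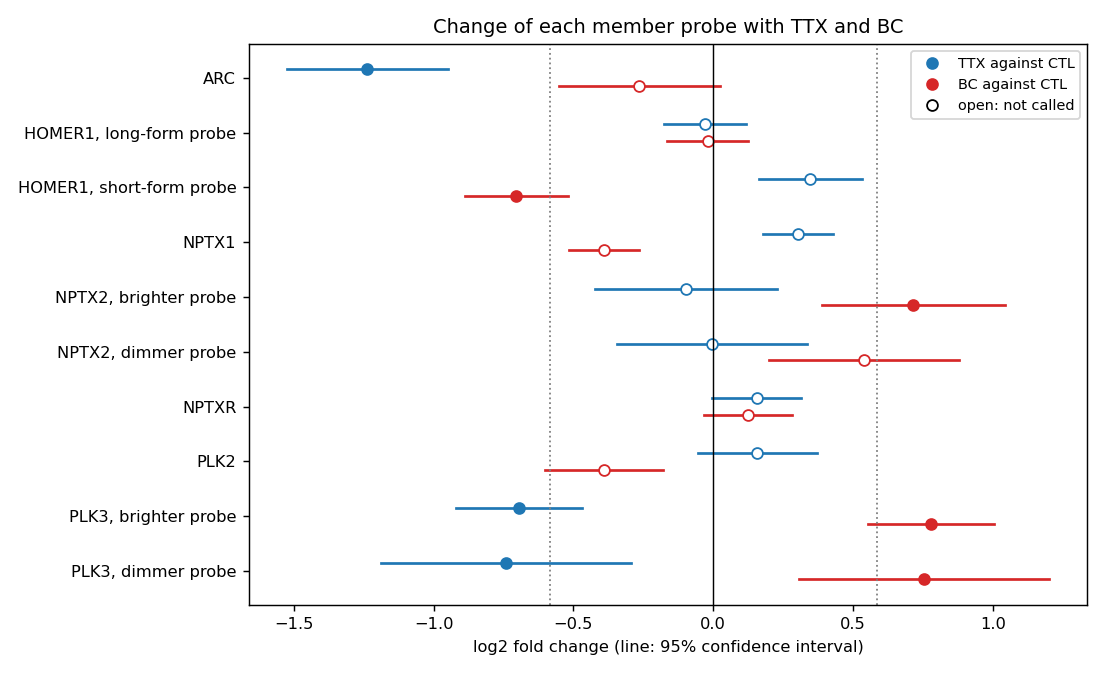
Log2 fold change (x axis) of each member probe in TTX (blue) and BC (red) against CTL, with lines for the 95% confidence interval from limma. Filled points were called, open points were not, and dotted lines mark 1.5-fold; PLK3 has filled points on both sides of 0, whereas ARC has one only for TTX.

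ARC was the member with the largest change with TTX. Its log2 signal was 12.52, 12.34, 12.64 and 12.24 on CTL replicates 1 to 4, 11.37, 11.23, 11.04 and 11.16 on the TTX arrays, and 11.90, 12.13, 12.20 and 12.46 on the BC arrays. All TTX arrays lay below every CTL and every BC array, and the BC arrays overlapped the CTL arrays. ARC was 2.36-fold lower in TTX than in CTL (log2 fold change −1.24, SE 0.13, 4 arrays in each group, limma adjusted p = 0.000224), with within-slide differences of −1.49 to −0.97. It was not called with BC (−0.26, 95% confidence interval −0.55 to 0.02, limma adjusted p = 0.308), where 3 slides gave a negative difference and slide 3 gave 0.12. TTX against BC gave −0.97 (limma adjusted p = 0.000294). The levels of ARC thus ran from TTX, the lowest, to BC and CTL, which did not differ beyond their spread.

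The HOMER1 probes behaved differently. On the long-form probe, the log2 signal was 11.72, 11.90, 11.83 and 11.79 in CTL, 11.67, 11.75, 11.78 and 11.92 in TTX, and 11.75, 11.81, 11.75 and 11.84 in BC. All 3 groups overlapped. The change was −0.03 with TTX (95% confidence interval −0.17 to 0.12, limma adjusted p = 0.899) and −0.02 with BC (−0.17 to 0.12, limma adjusted p = 0.961). Both intervals lay within a change of 1.5-fold either way. They cover only the spread among these samples, so a change of that size across cultures is not excluded.

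On the short-form probe, the log2 signal was 9.16, 9.26, 9.25 and 9.11 in CTL, 9.47, 9.40, 9.53 and 9.77 in TTX, and 8.53, 8.49, 8.39 and 8.56 in BC. No group overlapped another, with BC lowest and TTX highest. The signal of this probe was 1.63-fold lower in BC than in CTL (log2 fold change −0.70, SE 0.0836, limma adjusted p = 0.000522), with −0.77 to −0.58 within slides. In TTX it was higher than in CTL by 0.35 (SE 0.0836, limma adjusted p = 0.0248), which is under 1.5-fold and was not called. Between TTX and BC the difference was 1.05 (limma adjusted p = 7.72e-06), or 2.07-fold.

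That the pair of HOMER1 probes responded unlike was tested in itself, as the change of the short-form probe minus that of the long-form probe, with limma over the 5280 pairs of a gene's brightest and another probe. The difference was −0.68 for BC against CTL (SE 0.0653, limma adjusted p = 0.00305), where 1.61% of all pairs passed an FDR of 0.05. For TTX against CTL it was 0.38 (SE 0.0653, limma adjusted p = 0.0383), against 0.549% of pairs, and this value missed the threshold without any 1 array other than BC replicate 1 (adjusted p up to 0.12). For TTX against BC it was 1.06 (limma adjusted p = 2.19e-05), against 9.7% of pairs. An exact two-sided permutation test over arrays gave p = 0.0286 for each of the 3 comparisons, the smallest that 70 regroupings of 4 against 4 arrays can give, and 0.0514 after adjustment over the 9 tests of 3 genes. With slide sets averaged, the difference did not pass for BC (limma adjusted p = 0.172) or TTX (0.273) against CTL.

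**Figure D3:**
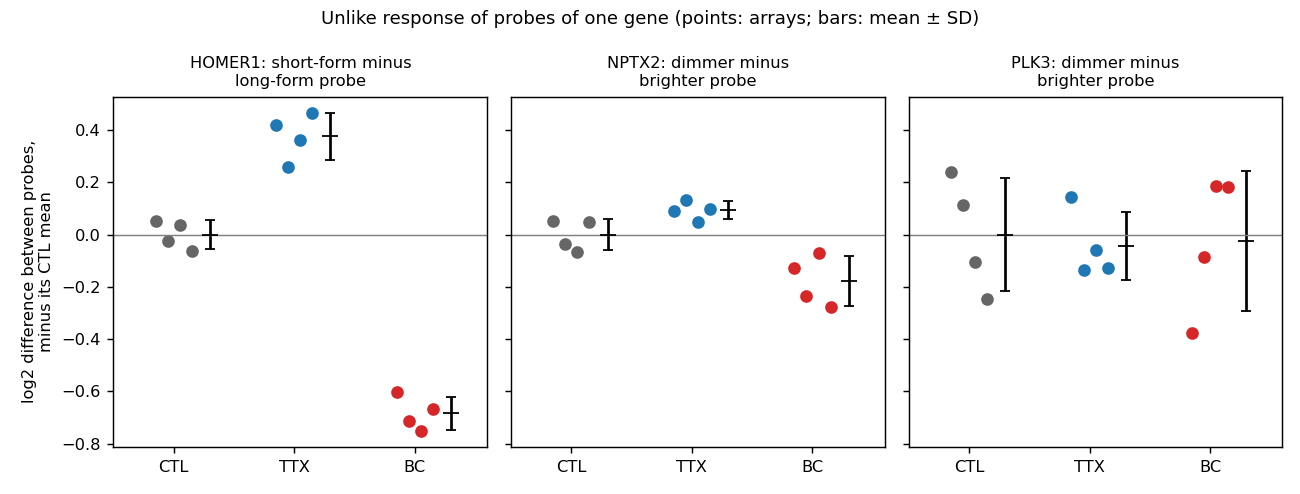
Difference in log2 signal between the probes of HOMER1, NPTX2 and PLK3 on each array, minus its mean over the CTL arrays (y axis). Points are arrays, 4 per group, and bars give the mean ± SD; the HOMER1 difference separates the 3 groups, at 0.38 in TTX and −0.68 in BC, whereas those of PLK3 overlap around 0.

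Among the pentraxins, BC raised NPTX2, whereas NPTX1 was lower in BC without reaching 1.5-fold. NPTX1 had a log2 signal of 13.61, 13.76, 13.63 and 13.55 in CTL, 13.92, 13.97, 13.89 and 13.99 in TTX, and 13.23, 13.21, 13.26 and 13.29 in BC. The groups did not overlap, and the order was the same as for the HOMER1 short-form probe, with BC lowest and TTX highest. Both differences from CTL passed the FDR but stayed under 1.5-fold, so neither was called: 0.30 with TTX (SE 0.0568, limma adjusted p = 0.00698) and −0.39 with BC (SE 0.0568, limma adjusted p = 0.00186). Between TTX and BC, NPTX1 differed by 0.69, or 1.62-fold (limma adjusted p = 9.57e-06).

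The brighter NPTX2 probe had a log2 signal of 12.61, 12.55, 12.72 and 12.30 in CTL, 12.62, 12.53, 12.26 and 12.39 in TTX, and 12.91, 13.17, 13.57 and 13.40 in BC. All BC arrays lay above every CTL and every TTX array, while TTX and CTL overlapped. NPTX2 was 1.64-fold higher in BC than in CTL (log2 fold change 0.72, SE 0.147, limma adjusted p = 0.0129), and TTX against CTL gave −0.10 (95% confidence interval −0.42 to 0.23, limma adjusted p = 0.809). Within slides the BC difference was 0.96 and 0.85 on slides 1 and 3 and 0.44 and 0.61 on slides 2 and 4.

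The dimmer NPTX2 probe gave 10.84, 10.69, 10.83 and 10.52 in CTL, 10.88, 10.84, 10.47 and 10.66 in TTX, and 10.95, 11.10, 11.67 and 11.29 in BC. The groups overlapped as on the brighter probe, with BC apart from both. Its BC change of 0.54 was 1.45-fold and was not called (SE 0.154, limma adjusted p = 0.0592), though without BC replicate 1 it was (0.64, limma adjusted p = 0.0324), and TTX gave −0.01 (95% confidence interval −0.35 to 0.33). The difference between the NPTX2 probes in their response to BC was −0.18 (95% confidence interval −0.32 to −0.04, limma adjusted p = 0.25), so a call on one probe and not on the other was not a difference between them past the threshold. Between TTX and BC the pair differed by 0.27 (SE 0.0643, limma adjusted p = 0.0244), which missed the threshold with slide sets averaged (limma adjusted p = 0.0974) and without BC replicate 2 or 4 or TTX replicate 1, 2 or 4 (0.059 to 0.0677).

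NPTXR was not called in any comparison. Its log2 signal was 16.10, 16.11, 15.97 and 16.03 in CTL, 16.26, 16.20, 16.14 and 16.23 in TTX, and 16.02, 16.14, 16.32 and 16.23 in BC. The TTX arrays lay above all CTL arrays by a small margin, and the BC arrays overlapped both groups. The change was 0.16 with TTX (95% confidence interval −0.003 to 0.31, limma adjusted p = 0.239) and 0.12 with BC (−0.03 to 0.28, limma adjusted p = 0.413). A further probe, named for CBX6 but described on the array as the pentraxin receptor, is no member by name. It gave 0.06 with TTX and 0.45 with BC (limma adjusted p = 0.0204), and was not called.

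With BC, PLK3 rose, whereas the value of PLK2 was negative and not called, a difference between genes that was not tested. PLK2 had a log2 signal of 11.55, 11.89, 11.50 and 11.58 in CTL, 11.84, 11.75, 11.77 and 11.80 in TTX, and 11.03, 11.28, 11.31 and 11.34 in BC. All BC arrays lay below every other array, and TTX overlapped CTL through CTL replicate 2. With BC the change was −0.39 (SE 0.0955, limma adjusted p = 0.0297), under 1.5-fold and not called, and with TTX it was 0.16 (95% confidence interval −0.05 to 0.37, limma adjusted p = 0.401). Between TTX and BC the difference of 0.55 passed the FDR (limma adjusted p = 0.00171), but at 1.46-fold it was not called.

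The brighter PLK3 probe had a log2 signal of 10.67, 10.69, 10.74 and 10.43 in CTL, 9.99, 10.13, 9.74 and 9.89 in TTX, and 11.35, 11.28, 11.56 and 11.45 in BC. No group overlapped another, with TTX lowest and BC highest, whereas for PLK2 BC was the lowest and TTX overlapped CTL. PLK3 was 1.62-fold lower with TTX (log2 fold change −0.70, SE 0.102, limma adjusted p = 0.00171) and 1.72-fold higher with BC (0.78, SE 0.102, limma adjusted p = 0.000945). PLK3 was the only member called in both comparisons with CTL, and 0.641% of all probes were called lower with TTX and higher with BC. Both comparisons use the same CTL arrays. TTX against BC, a difference of means that leaves the CTL arrays out, gave −1.47 (limma adjusted p = 2.96e-06), or 2.78-fold. The spread behind that p-value was estimated from all 12 arrays.

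The dimmer PLK3 probe gave 6.94, 6.83, 6.67 and 6.22 in CTL, 6.16, 6.03, 5.71 and 5.80 in TTX, and 7.01, 7.23, 7.78 and 7.66 in BC. The groups were apart in the same order, but CTL replicate 4 lay close to the TTX arrays. Its changes were −0.74 with TTX (SE 0.202, limma adjusted p = 0.0433) and 0.75 with BC (SE 0.202, limma adjusted p = 0.0451), both called. Of 24 alternative settings, 14 ended the TTX call and 17 the BC call. The TTX call was lost without any 1 array other than CTL replicate 4 and BC replicates 1 and 3 (limma adjusted p up to 0.113), and the BC call without any other than BC replicate 1 (up to 0.127). With the authors' log2 values, which have no background subtracted, the changes were −0.46 (limma adjusted p = 0.0923) and 0.55 (limma adjusted p = 0.0456, under 1.5-fold). The PLK3 probes differed in response by −0.05 with TTX (95% confidence interval −0.37 to 0.28) and by −0.02 with BC (−0.34 to 0.30).

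**Figure D4:**
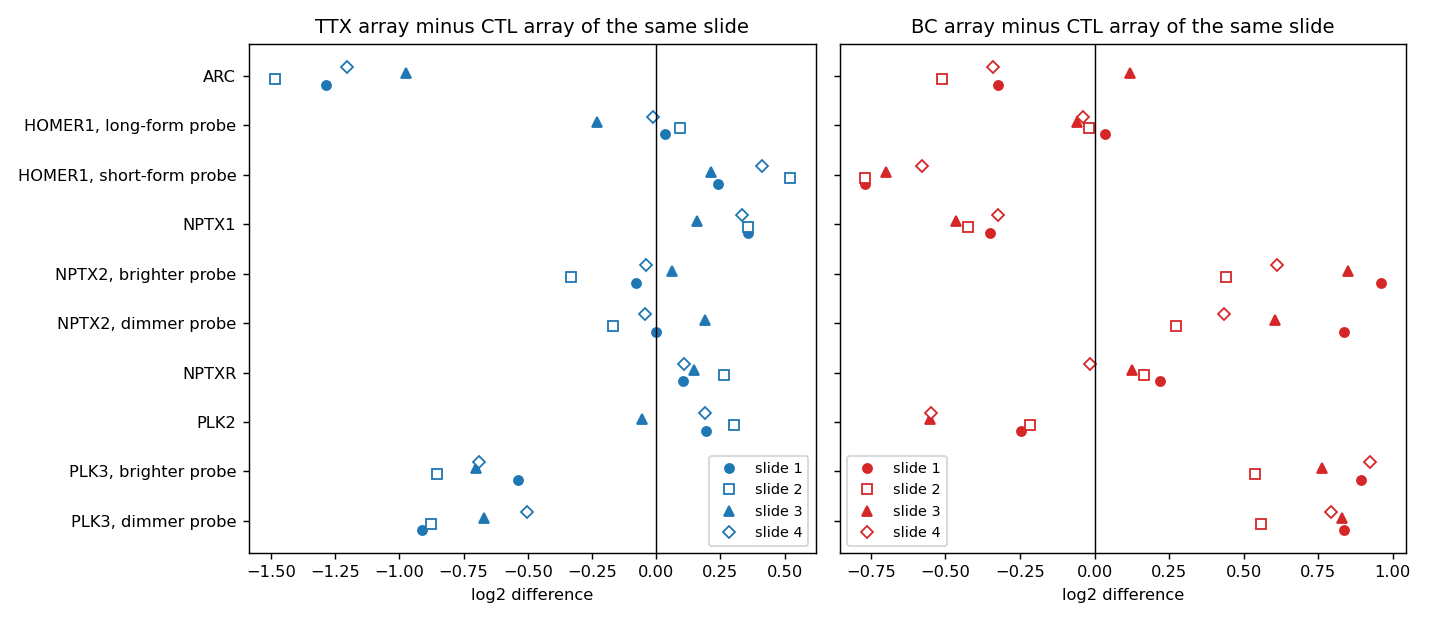
Log2 difference between the TTX (left) or BC (right) array and the CTL array of the same slide (x axis) for each member probe. Each symbol is 1 slide, filled for slides 1 and 3 and open for slides 2 and 4. Both PLK3 probes lie below 0 with TTX and above 0 with BC on all 4 slides, as any pairing of groups that do not overlap must give.

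Promoter sequence was at hand for HOMER1, NPTX2, PLK2 and PLK3 among the 7 genes, from RefSeq on the GRCr8 build. The 250 bases before the start of NPTX2, PLK2 and PLK3 are shown because BC raised NPTX2 and PLK3 and gave a negative value for PLK2. Capitals mark matches on either strand to TGACGTCA, the CRE bound by CREB, to its core TGACG, and to GCGNGGGCG, the EGR site. PLK2 held the whole CRE from 66 to 59 bases before its start, and 1.7% of 27457 promoters of this length held one. NPTX2 held the core from 90 to 86 bases before its start and an EGR match from 112 to 104, and PLK3 held the core at 127 to 123 and 59 to 55. The core was found in 19.0% of all promoters and an EGR match in 4.53%. The HOMER1 window held none of these letters.
NPTX2 chr12:15162046-15162295 minus strand: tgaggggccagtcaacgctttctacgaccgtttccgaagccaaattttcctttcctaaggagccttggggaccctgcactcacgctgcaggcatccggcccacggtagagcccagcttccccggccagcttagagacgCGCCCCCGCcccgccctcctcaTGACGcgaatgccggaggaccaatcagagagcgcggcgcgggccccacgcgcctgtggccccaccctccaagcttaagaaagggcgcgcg
PLK2 chr2:43702286-43702535 plus strand: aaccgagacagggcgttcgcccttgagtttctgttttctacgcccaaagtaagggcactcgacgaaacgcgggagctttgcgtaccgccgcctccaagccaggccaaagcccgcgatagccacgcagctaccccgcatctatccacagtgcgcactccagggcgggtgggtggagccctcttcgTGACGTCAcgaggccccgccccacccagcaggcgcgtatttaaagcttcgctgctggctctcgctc
PLK3 chr5:135848901-135849150 minus strand: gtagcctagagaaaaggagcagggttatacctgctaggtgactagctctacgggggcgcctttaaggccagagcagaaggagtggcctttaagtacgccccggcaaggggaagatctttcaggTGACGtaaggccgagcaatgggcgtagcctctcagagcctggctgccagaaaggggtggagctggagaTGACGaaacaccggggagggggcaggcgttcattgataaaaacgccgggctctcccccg
No AP-1 match (TGANTCA, in 6.36% of all promoters), CArG box (1.5%) or MEF2 site (3.07%) was found in any of the 4 windows. A match is a run of letters, and no binding was measured. PLK2, with the whole CRE, had a BC change of −0.39, which was not called, and PLK3, with the core alone, one of 0.78. Whether a site bears on the change of its gene was not tested.

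Genes that work with the members were read from lists, each gene by its brightest probe. Across the 5 lists, 13 genes were called with TTX and 15 with BC, against 4.17 and 3.6% of all genes, and with slide sets averaged 8 and 0 were called. Over 13 measured partners of HOMER1, the median log2 fold change was 0.12 with TTX and −0.06 with BC, beside 0.01 and −0.01 for all genes.

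None of 24 genes for ARC partners and AMPA receptor traffic was called by limma with TTX or BC, where 4 and 7 had an unadjusted p under 0.05, and their medians were −0.02 and −0.08. Unadjusted p-values of this size were common over the whole array, so such counts in these lists do not set them apart. With TTX, the NPTXR probe (limma unadjusted p = 0.0537) ranked about 9220 by p among 41009 probes. With BC, the ARC probe (limma unadjusted p = 0.0672) ranked about 8950 among 41007. Among 11 pentraxin relatives and partners, TTX lowered 3 and BC raised 1. The fallen genes were HAPLN1, which encodes a link protein of the perineuronal matrix (−1.54, SE 0.248, limma adjusted p = 0.00295), CBLN2, which encodes a synaptic organizer (−0.85, SE 0.159), and C1QL1, which encodes a C1q-like synaptic protein (−0.73, SE 0.136). C1QL1 rose with BC by 1.26 (SE 0.136, limma adjusted p = 0.000296), so its groups ran in the order of PLK3. Among 18 genes for polo-like kinases and their Ras and Rap targets, limma called none with TTX, where 5 had an unadjusted p under 0.05, and BC lowered RAP2B, a small GTPase gene (−0.59, SE 0.101, limma adjusted p = 0.00487). The medians of these lists were 0.07 and −0.01 for the pentraxin list and 0.07 and −0.04 for the kinase list, with TTX and BC.

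Of 37 activity-regulated genes, TTX lowered 9, none was called higher by limma (2 were higher at an unadjusted p under 0.05), and BC raised 8 and lowered 4, with medians of −0.18 and 0.05. Those lower with TTX, as ARC and PLK3 were, included RASL11A, a Ras-like gene (−1.61, SE 0.0876, limma adjusted p = 3.61e-06), and RGS2, a regulator of G protein signaling (−1.27, SE 0.0728, limma adjusted p = 4.95e-06). BDNF, the neurotrophin gene, fell by 1.45 on the log2 scale with TTX (SE 0.133) and rose by 1.09 with BC (SE 0.133). The zinc finger gene KLF4 fell by 1.01 with BC (SE 0.0681, limma adjusted p = 2.32e-05) and the immediate early gene EGR2 by 1.62 (SE 0.136). These are among the 4 lowered with BC, in the direction of the HOMER1 short-form probe and against the 8 raised. NR4A2, also an immediate early gene, rose with BC by 1.17 (SE 0.124).

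**Figure D5:**
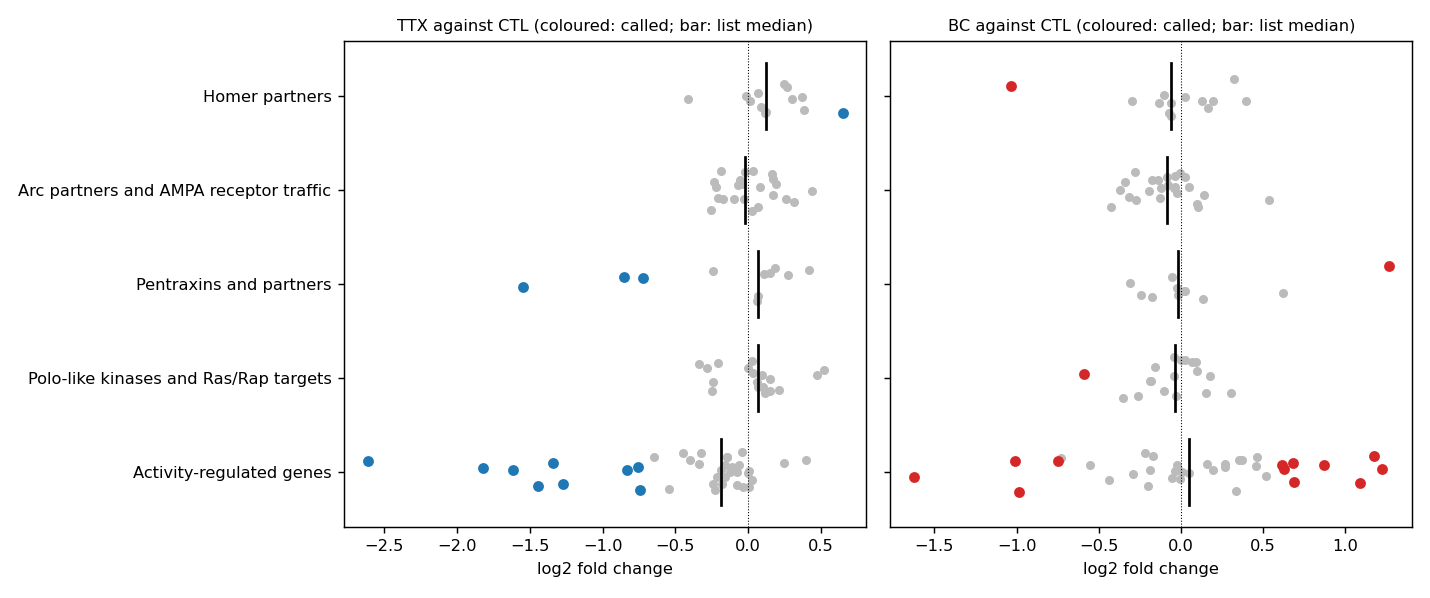
Log2 fold change (x axis) of each measured gene of the 5 lists with TTX (left) and BC (right) against CTL. Coloured points were called, grey points were not, small vertical shifts only separate points, and black bars are list medians; the activity-regulated genes hold 9 of the 13 called genes with TTX and 12 of the 15 with BC.

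The genes most like each member over the 12 arrays were found by Pearson's r among 14913 probes with a gene symbol that were well above background on all arrays. These r mostly follow the 3 groups and the slides that all points share. For ARC they were SYT12 (r = 0.982), GNAL (0.981) and LRRK2 (0.973). Each was lower with TTX and not called with BC, but they were chosen for likeness to ARC on these same arrays, so that is no separate result. For the HOMER1 short-form probe they were MICU2 (0.989), PSD3 (0.986) and FLRT3 (0.985), and for the long-form probe TM9SF3 reached 0.866. For NPTX1 the nearest were ST6GALNAC3 and TGFB3 (both 0.987) and PRKCE (0.984). The brighter NPTX2 probe was nearest to ERCC1 (0.979), NME3 (0.978) and SLN (0.976), and the dimmer to ST6GALNAC5 (0.962). NPTXR was nearest to CGGBP1 (0.941), PLK2 to HEY1 and PRNP (both 0.965), and PLK3 to PARM1 (0.995), CAMK1G (0.994) and ETV1 (0.992). CAMK1G, a Ca2+/calmodulin-dependent kinase gene, is also on the list of activity-regulated genes, and it was called higher with BC (0.62, limma adjusted p = 0.000805) but not lower with TTX (−0.44, limma adjusted p = 0.00502, under 1.5-fold).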

How the data were processed

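RNA was measured in 12 samples of rat hippocampal neuron cultures on single-color Agilent arrays, and each array took its group from its sample label. The authors deposited scanner intensities made by Feature Extraction 9.5.1.1, which had subtracted background and a spatial trend within each array. The authors also deposited quantile-normalized log2 values, with 1131 empty values in the column of BC replicate 2, and these were used only as an alternative. The submitters' processing notes name limma.

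Outlier spots named by the software (13 to 40 per array) were removed, and log2 processed signals of the 12 arrays were quantile-normalized without filtering dim probes. Group means were fitted with limma 3.58.1 (R 4.3.3) and eBayes, and p-values were adjusted by Benjamini and Hochberg's method over all probes. Calls needed an FDR under 0.05 together with a ratio of at least 1.5 or no more than 0.667. The number of arrays limits the precision. Python 3.11.15, pandas 2.3.3, numpy 2.4.6, matplotlib 3.10.9 and version 1.17.8 of data.table were used. The steps were also tested on simulated data.

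Symbols came from the RefSeq genes of GRCr8, for 10813 probes through an accession, for 5133 by symbol and for 3455 by an older name, and 21611 probes stayed under the name on the array. The text names every member probe, called genes of each list (up to 4 per comparison by smallest p) and the 3 genes most like each member. Which of those activity-regulated genes to describe was chosen after their values were seen. Some listed genes are not reported here. Members and lists were chosen with earlier results of these data known.

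Alternatives were normexp with an offset of 50, the median signal with no background subtracted, the 75th percentile, the authors' log2 values, a filter to probes above background, slide, slide set or replicate blocks, averaged slide sets, a robust eBayes with a trend, no fold threshold, fits of only 2 groups, the mean of a gene's probes, an exact permutation test and leaving out each array.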

Additional observations from a re-analysis of the deposited data

How the results depend on the processing

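Each called member probe kept its sign under every alternative run, and of the single values of member probes under them 673 kept their side of the threshold, 37 lost it and 10 gained it. The cause of the changes below was not tested. Over all probes, the counts called with TTX, with BC and between them were 882, 762 and 2592 with normexp, 949, 828 and 2753 with the median signal, 938, 830 and 2729 with the authors' log2 values, and 4054, 3361 and 9867 with no fold threshold. With slide sets averaged they were 512 with TTX and 0 with BC, and listed genes called were 8 and 0. No fold threshold gave 5 member probes with TTX, and 23, 25 and 45 listed genes. Averaged slide sets gave 0 member probes with TTX and 0 with BC by limma, at an unadjusted p under 0.05 for 5 and 7.

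The HOMER1 probe difference with TTX stayed at 0.38 but missed the threshold with the 75th percentile (limma adjusted p = 0.052), averaged slide sets (0.273), only the 2 groups compared (0.105) and the exact permutation test (0.0514), and ran from 0.346 to 0.415 when 1 array was left out. With BC it stayed at −0.68 with averaged slide sets (limma adjusted p = 0.172) and the exact permutation test (0.0514), and between TTX and BC at 1.06 in that exact test. The NPTX2 probe difference between TTX and BC stayed at 0.27 with averaged slide sets (limma adjusted p = 0.0974), only the 2 groups compared (0.0598) and the exact permutation test (0.0514), and ran from 0.237 to 0.307 when 1 array was left out. The PLK3 probe difference between TTX and BC, −0.02, turned to 0.48 with normexp (limma adjusted p = 0.00551), 0.40 with the median signal (0.0328) and 0.43 with the authors' log2 values (0.0227).

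Replicate numbers did not pair the arrays: deviations from group means correlated at 0.279 to 0.377 between same-numbered CTL and TTX arrays and at −0.348 to −0.241 between CTL and BC. With the replicate number as a block, 2 member probes were called with BC, the HOMER1 difference with TTX was 0.38 (limma adjusted p = 0.18) and the NPTX2 difference between TTX and BC was 0.27 (0.0874). Under that block the brighter NPTX2 probe was not called with BC (limma adjusted p = 0.0524), nor the dimmer PLK3 probe with TTX (0.12) or BC (0.126).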

Other observations

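A probe described on the array as a further HOMER1 form (HOMER1G), not a member by name, was well above background on none of the 12 arrays, so no fold is given for it.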
